A study of Mus musculus with 9 samples.

Results

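Adhesion G protein-coupled receptors are a family of cell-surface receptors, and 27 of the 41214 rows of the count table belonged to it by a rule on gene symbols (Adgr, a subfamily letter and a number). All 27 had a count above 0 in at least 1 library, 13 in all 9 libraries, and 18 had enough counts to be tested. The data were bulk RNA-seq of 3 endothelial populations sorted from mouse hearts, with 3 libraries each. The embryos carried the transgenes Nes-Gfp(Tg/0) and Nes-CreER(Tg/0) together with the reporter allele R26 (tom/+), had tamoxifen (0.1 ug) at E15.5 and were collected at E17.5. All 3 populations therefore carried the same 3 alleles and the same tamoxifen. Ventricles, freed of atria and of the aortic region, were digested, and viable CD31+ GFP+ cells without Ter119 (an erythroid antigen) and CD45 (a leukocyte antigen) were sorted. The arterial population was the Emcn-low, Tomato+ part, which the labels describe as enriched in intramyocardial arterial vessels and capillaries. The venous population was the Emcn-low, Tomato-, GFP-low part, described as enriched in subepicardial veins. For the endocardial population the written gate stops at CD31 and GFP, with no Emcn or Tomato term, so it sets no limit on coronary cells. GFP, CreER and hence the Tomato label were driven by Nes (nestin) transgenes, so each population is an enrichment by a reporter and not a pure vessel type. The labels do not say whether the libraries of a population came from separate animals or litters, so p-values reflect only how far these libraries vary, and that variation may be technical.

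An adhesion receptor of this family has a long extracellular part with adhesion modules, a domain at which the protein usually cuts itself, and a membrane-spanning part that signals through G proteins. Binding of a matrix or cell-surface partner can expose a short tethered peptide that activates the receptor, so that the family links adhesion and mechanical cues to signalling. In endothelium, Adgrl4 and Adgrf5 are known as vascular members. Adgra2 is known for its role with Reck in Wnt7 signalling during brain vessel growth, and Adgrg6 for Schwann cell myelination and for its place in the developing endocardium and heart wall.

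Start-site windows are shown for Adgrg6, the member with the widest range over the populations among those called, and for Adgrf5 and Adgrl4, the most abundant members per length in the coronary populations. Each runs from 250 bases before to 50 bases after a RefSeq start site (assembly GRCm38.p6), 5′ to 3′ on the strand of the gene. Capitals mark GGAA and its reverse complement TTCC, the core of ETS factor motifs.
Adgrg6, chr10:14544987-14545286, minus strand: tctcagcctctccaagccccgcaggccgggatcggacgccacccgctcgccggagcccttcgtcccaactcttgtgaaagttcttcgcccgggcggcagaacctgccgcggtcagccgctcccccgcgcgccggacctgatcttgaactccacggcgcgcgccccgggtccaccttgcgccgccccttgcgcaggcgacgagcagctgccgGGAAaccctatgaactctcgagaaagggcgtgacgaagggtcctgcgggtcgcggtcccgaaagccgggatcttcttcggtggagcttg
Adgrl4, chr3:151437632-151437931, plus strand: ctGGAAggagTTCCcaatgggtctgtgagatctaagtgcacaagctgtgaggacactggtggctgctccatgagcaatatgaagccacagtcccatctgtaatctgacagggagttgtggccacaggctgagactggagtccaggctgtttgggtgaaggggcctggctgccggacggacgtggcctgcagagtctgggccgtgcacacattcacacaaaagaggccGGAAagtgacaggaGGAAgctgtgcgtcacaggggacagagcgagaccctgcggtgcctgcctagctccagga
Adgrf5, the first of its RefSeq starts, chr17:43360181-43360480, plus strand: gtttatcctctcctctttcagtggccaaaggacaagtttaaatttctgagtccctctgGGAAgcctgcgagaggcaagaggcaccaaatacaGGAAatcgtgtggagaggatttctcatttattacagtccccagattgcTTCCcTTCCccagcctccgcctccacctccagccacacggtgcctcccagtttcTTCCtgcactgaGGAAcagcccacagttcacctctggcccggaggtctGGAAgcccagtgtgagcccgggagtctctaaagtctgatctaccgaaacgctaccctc
The Adgrg6 window held 38 CG dinucleotides, and 4.95% of the 32851 windows of 300 bases in the same table held as many. Both the Adgrl4 and the Adgrf5 window held 8, close to the median of 7. GGAA, searched on both strands, occurred 1 time in the Adgrg6 window, 4 times in that of Adgrl4 and 7 times in the Adgrf5 window shown, and 96.0%, 46.3% and 8.02% of windows held as many. A further Adgrf5 window, chr17:43389216-43389515, held 5, and 28.6% of windows held as many. The longer form CCGGAA, which contains GGAA, was found in the Adgrl4 window and in 14.9% of all windows. The GATA factor motif AGATAA was in none of the 3 windows and in 11.2% of all. The same held for the TATA box, searched as TATAAA, which 13.6% of windows contained. An E-box of the form CACGTG was likewise in none of the 3 and in 7.15% of all windows. Windows were matched for 20 of the 27 members.

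Total counts per library ran from 12750553 to 19474419. Replicate 1 of each population had the most genes with a count, and in endocardium it stood apart with 21101 genes against 17337 and 17130. Levels are given as CPM, read counts scaled to the size of each library by the TMM method of edgeR. Summed CPM of the 8 pan-endothelial markers were 5047 to 6896 in arterial, 4747 to 6135 in venous and 3302 to 4332 in endocardial libraries. The summed CPM of 9 endocardial markers was 95.8 to 112, 290 to 428 and 3601 to 4477 in the same order, and no gene of either list was at 0 in every library. In that order, the 8 arterial markers summed to 800 to 1019, 361 to 413 and 328 to 397 CPM. The 5 venous markers summed to 622 to 803, 1049 to 1245 and 527 to 1293 CPM. Between arterial and venous libraries, 6 of 8 arterial and 2 of 5 venous markers were called (as defined below), against 1.07% of all genes. Of these 2, Nr2f2 was highest in endocardium (123 CPM) and Aplnr in venous libraries (384 CPM).

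Of the 27 members, 12 reached 1 CPM or more in all 9 libraries: Adgra2, Adgra3, Adgrb3, Adgre5, Adgrf5, Adgrg3, Adgrg6, Adgrl1, Adgrl2, Adgrl3, Adgrl4 and Adgrv1. Adgrg1 fell short of that in endocardial replicate 3 alone, at 0.204 CPM. Counts of the family made up 0.287% ± 0.0203 (SD, n = 3) of all counts in the arterial, 0.290% ± 0.0294 in the venous and 0.238% ± 0.0106 in the endocardial libraries. The 9 members that could not be tested were Adgra1, Adgrb1, Adgre1, Adgre4, Adgrf1, Adgrf3, Adgrf4, Adgrg2 and Adgrg7, with at most 3.36 CPM (44 counts, Adgra1 in endocardial replicate 1) in any library. Summed over these 9, endocardial replicate 1 held 141 counts and endocardial replicates 2 and 3 held 33 and 7.

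**Figure D1:**
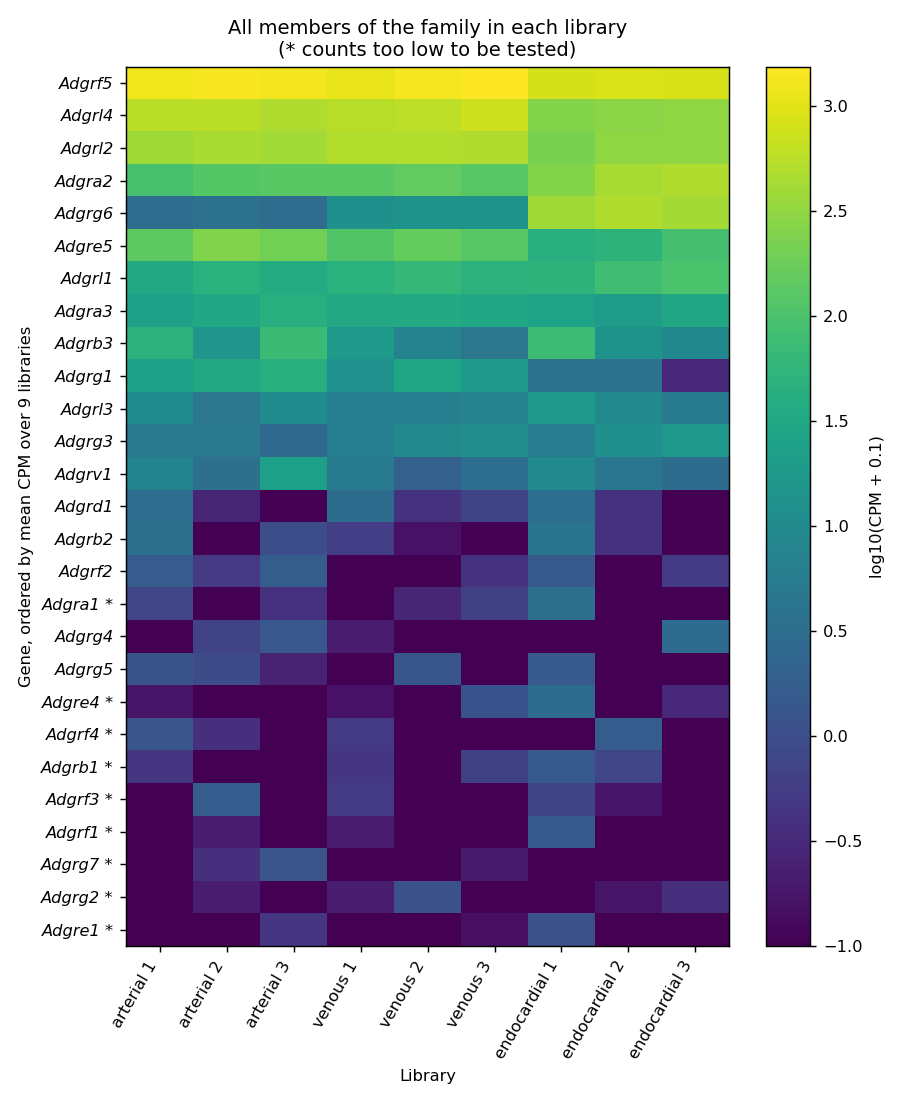
Level of the 27 members (rows, ordered by mean CPM) in the 9 libraries (columns), as the log10 of CPM + 0.1; an asterisk marks the 9 members too low to be tested. CPM is not scaled by gene length, so rows are to be read across; the Adgrg6 row changes from dark in the arterial to bright in the endocardial libraries.

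Levels of different genes were compared as CPM per kilobase of merged exons. Merged exons join all annotated exons of a gene and can exceed the expressed transcripts, so the order between genes is approximate. For Adgre5, part of this length is shared with Ddx39, as described below. In arterial libraries the order was Adgrf5 (147), Adgrl4 (118), Adgre5 (51.4), Adgrl2 (29.4) and Adgra2 (19.9 CPM per kb). The arterial libraries of Adgrf5 (140 to 158) lay above those of Adgrl4 (106 to 124). In venous libraries Adgrf5 (148) and Adgrl4 (138) overlapped, at 125 to 171 and 122 to 164 CPM per kb, and Adgrl2 (35.5) and Adgre5 (34.8) followed. In endocardium the order was Adgrf5 (95.1), Adgra2 (67.8), Adgrl4 (62.2), Adgrg6 (35.2), Adgrl2 (19.7) and Adgre5 (16.3 CPM per kb). There Adgra2, at 44.2 to 83.7, overlapped Adgrl4, at 56.5 to 68.3. Adgrf5 and Adgrl4 together took most of the summed CPM per kb of the family in the coronary populations, 38.1% and 30.5% in arterial and 37.2% and 34.7% in venous, against 30.2% and 19.7% in endocardial libraries. Adgra2 and Adgrg6 took 21.5% and 11.2% of that sum in endocardium.

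**Figure D2:**
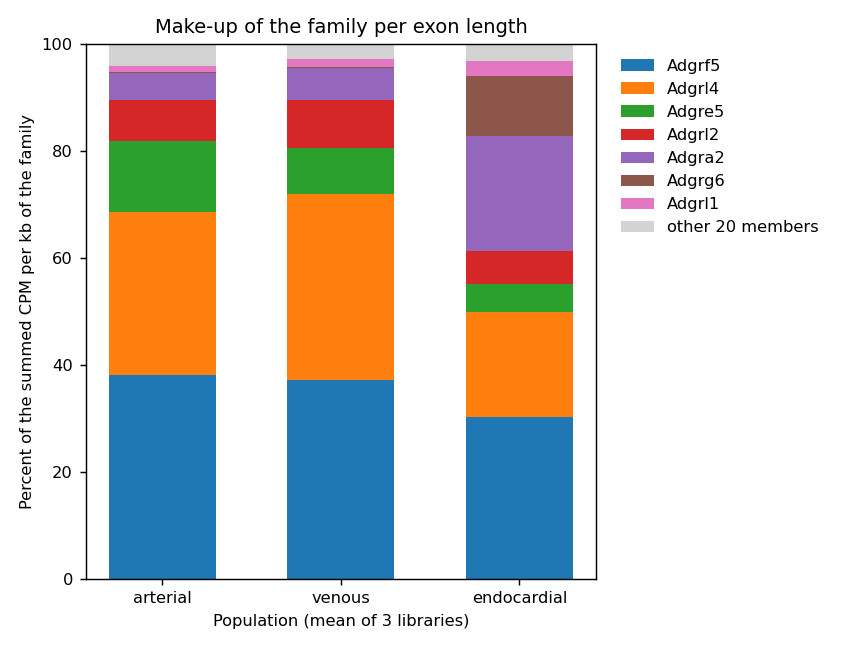
Share (percent) of the summed CPM per kb of the family taken by 7 named members and by the other 20, as the mean of 3 libraries in each population. Adgra2 takes 5.14% in the arterial, 5.92% in the venous and 21.5% in the endocardial libraries, and the Adgrg6 segment is visible in endocardium only.

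Adgrg6 and Adgra2 were higher in endocardium than in either coronary population, and Adgrf5, Adgrl4, Adgrl2, Adgre5 and Adgrg1 were lower. Against endocardium, 8 of the 18 tested members were called in arterial libraries, 5 higher and 3 lower, and 10 were not, where 11.7% of all 17103 genes were called (5.92% higher and 5.75% lower). Venous libraries had 7 called, 5 higher and 2 lower, and 11 not, where 10.2% of all genes were called (5.81% higher and 4.44% lower). The comparisons share the endocardial libraries and are no independent evidence of each other. A call is an adjusted p under 0.05 by the quasi-likelihood test of edgeR with Benjamini-Hochberg adjustment over all genes, and adjusted p-values come from it unless another tool is named. The median log2 fold change of the tested members was 0.41 arterial minus endocardial and -0.47 venous minus endocardial, against 0.01 and -0.10 over all genes. Both medians include low members with a wide SE. Adgrg4, for example, was at -0.56 ± 2.31 in the arterial and -4.32 ± 2.68 in the venous comparison. The opposite signs of the medians are therefore not read as a difference between the coronary populations. Libraries did not overlap for 5 of the 18 tested members between arterial and venous, 9 between arterial and endocardial and 8 between venous and endocardial libraries, against 17.3%, 25.6% and 28.2% of all genes tested. In bulk samples, fewer cells of a type and less RNA per cell cannot be told apart.

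Adgrg6, a receptor for collagen IV and laminin that signals through Gs, had the widest range of the called members. It lies on chromosome 10 (14402583 to 14545659, minus strand, GRCm38). Its level was 3.10, 3.57 and 3.09 CPM in arterial replicates 1 to 3, 12.8, 13.4 and 14.1 CPM in venous replicates and 391.6, 484 and 417 CPM in endocardial replicates. The 3 populations formed 3 separate steps with no overlap. Adgrg6 was 132-fold lower in arterial than in endocardial libraries (log2 fold change -7.04 ± 0.21, SE, adjusted p = 5.16e-12) and 32.0-fold lower in venous (-5.00 ± 0.19, adjusted p = 2.02e-10). Between the coronary populations it was 4.12-fold lower in arterial libraries (-2.04 ± 0.18, adjusted p = 6.61e-06, and at most 0.0145 over the alternatives tried). It was the single member called between arterial and venous libraries, 1 of 18 with 17 not called, where 1.07% of all genes were called (0.31% higher and 0.76% lower). An unadjusted p under 0.05 was found for 3 members there. DESeq2 also called 1, of the 16 members it tested, and 2.45% of all genes.

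The arterial mean of Adgrg6 was 0.755% of the endocardial mean and the venous mean 3.12%. For the endocardial markers Npr3, Cdh11, Tmem108 and Plvap the arterial mean was 1.11%, 0.736%, 1.09% and 0.626% of the endocardial mean, and the venous mean 2.12%, 4.98%, 5.86% and 5.13%. The Adgrg6 shares lay among those of these 4 markers. The other 5 markers of that list had higher shares, from 1.94% (Gata4) to 36.4% (Nfatc1) in arterial and from 10.9% (Hand2) to 154% (Tbx20) in venous libraries. Of the 9 endocardial markers, 3 were lower in arterial than in venous libraries and 6 were not called, with a median log2 fold change of -2.43. DESeq2 called 7 of the 9 lower, and 1.39% of all genes lower. With edgeR, 7 had an unadjusted p under 0.05. Of the 8 fibroblast markers, 5 were lower in arterial than in venous libraries, where 0.76% of all genes were lower. The part of endocardial cells or fibroblasts in the coronary gates in the Adgrg6 levels was not tested. Schwann cell and neural markers were low throughout, with 4 of 7 tested, none called in any comparison, and a sum of 6.91 to 12.2 CPM in arterial, 2.59 to 6.51 in venous and 10.3 to 23.5 in endocardial libraries.

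Adgra2, the partner of Reck in Wnt7 signalling (chromosome 8, 27085583 to 27123436, plus strand), was also highest in endocardium. It measured 92.4, 121 and 131 CPM in arterial, 129, 151 and 128 CPM in venous and 255, 436 and 483 CPM in endocardial replicates 1 to 3. Every endocardial library lay above every coronary library, with replicate 1 the lowest of the endocardial libraries. Adgra2 was 3.42-fold lower in arterial (-1.77 ± 0.22, adjusted p = 2.69e-05) and 2.88-fold lower in venous libraries (-1.52 ± 0.22, adjusted p = 0.000167). The coronary populations differed by -0.25 ± 0.22 (adjusted p = 0.865).

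Adgrl1, a latrophilin that binds teneurins and FLRT proteins (chromosome 8, 83900105 to 83941954, plus strand), measured 33.2, 46.4 and 38.1 CPM in arterial, 46.8, 60.6 and 48.7 CPM in venous and 51.0, 81.4 and 100.04 CPM in endocardial replicates. Endocardial replicate 1 lay within the venous range, and the other endocardial libraries above it. The gene was 1.97-fold lower in arterial than in endocardial libraries (-0.98 ± 0.25, adjusted p = 0.0131), and the call was lost without arterial replicate 3 (adjusted p = 0.0553), endocardial replicate 2 (0.0506) or endocardial replicate 3 (0.0924). Venous minus endocardial was -0.57 ± 0.24 (adjusted p = 0.170), and without endocardial replicate 1 the adjusted p was 0.0251 (0.0251 to 0.504 over all alternatives). Of the merged exon length of Adgrl1, 12.9% is shared with Gm10644 on the opposite strand, which reached at most 2.43 CPM.

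Adgrg3, known from neutrophils, had the same order of means at a lower level. It measured 4.72, 4.61 and 2.57 CPM in arterial, 6.27, 9.63 and 11.3 CPM in venous and 5.81, 12.4 and 16.8 CPM in endocardial replicates. The arterial libraries lay below all others, and the venous and endocardial ones overlapped. Arterial minus endocardial was -1.55 ± 0.49 with an adjusted p of 0.0515. It passed with DESeq2 (0.0201), with RLE scaling (0.0488), with no filter on low counts (0.0459) and without endocardial replicate 1 (0.0115), and ran from 0.0115 to 0.244 over all alternatives. Arterial minus venous was -1.19 ± 0.49 (adjusted p = 0.491).

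Markers of other cell types also differed between the populations, not always in the direction of these genes. Over all genes, 5.75% were lower and 5.92% higher in arterial than in endocardial libraries. In venous minus endocardial 4.44% were lower and 5.81% higher, and in arterial minus venous 0.76% and 0.31%. Of 8 fibroblast markers, 6 were lower in arterial than in endocardial libraries, and 3 were lower and 2 higher in venous libraries. Their sums were 82.7 to 86.2 CPM in arterial, 961 to 1066 in venous and 1331 to 1649 in endocardial libraries. Postn alone was at 55.0 to 70.4, 536 to 613 and 953 to 1140 CPM. Means of Col1a1, Col1a2, Dpt and Tcf21 were highest in venous libraries, and those of Dcn, Lum, Pdgfra and Postn in endocardial ones. Of 5 lymphatic markers, 3 were lower in arterial and 3 in venous than in endocardial libraries, with sums of 78.1 to 109, 118 to 198 and 552 to 649 CPM. Of 8 cardiomyocyte markers 7 were tested: 3 (Myh6, Tnnt2 and Actc1) were lower in arterial than in endocardial libraries, 1 (Actc1) was lower in arterial than in venous libraries, and none was called between venous and endocardial libraries by edgeR or DESeq2, with 0 at an unadjusted p under 0.05. Their sums were 249 to 357, 377 to 524 and 471 to 568 CPM in the arterial, venous and endocardial populations. The part of these markers in the levels of Adgrg6, Adgra2, Adgrl1 and Adgrg3 was not tested.

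**Figure D3:**
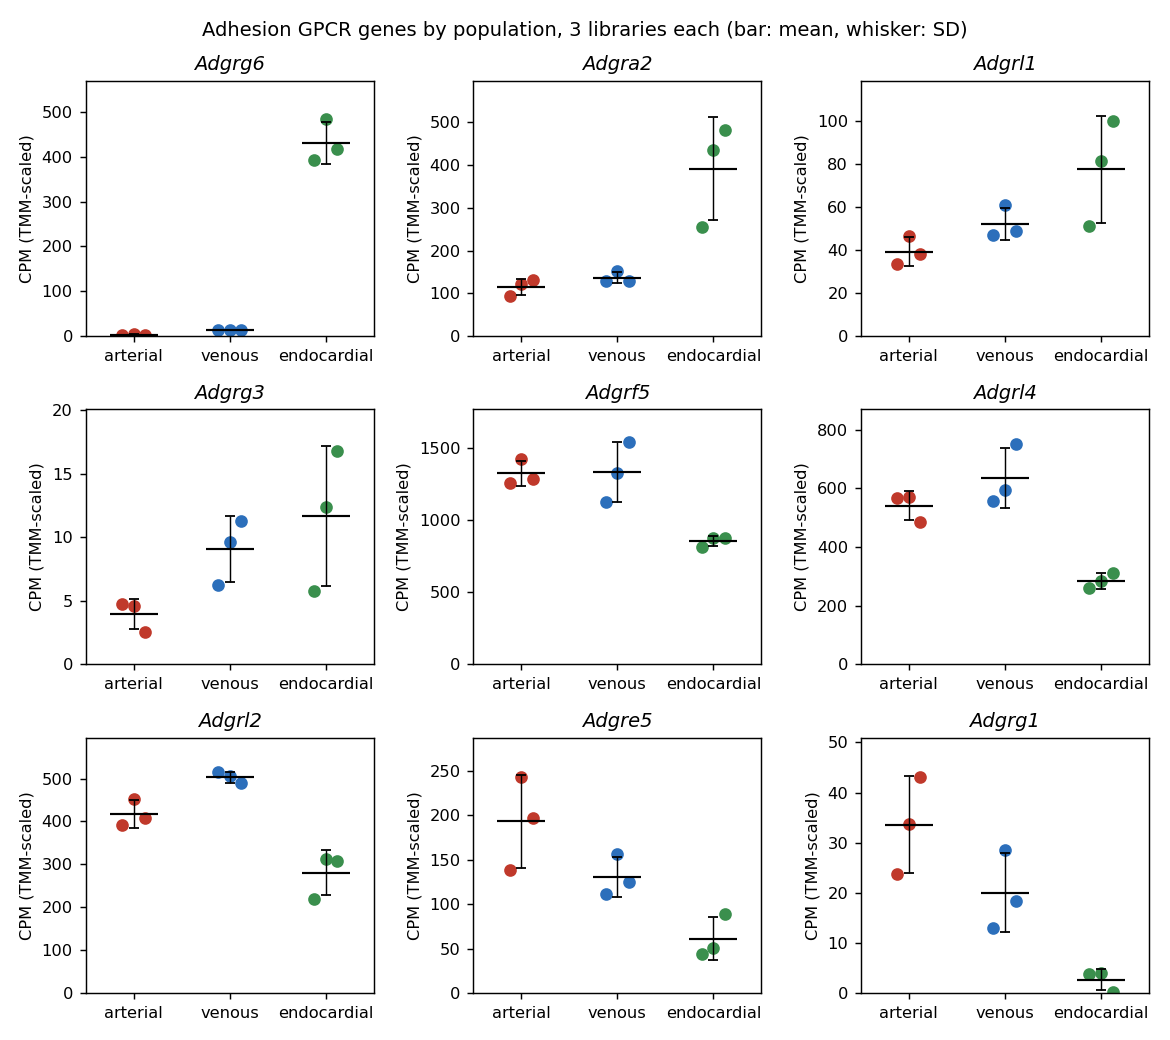
CPM of 9 members in each library (points; 3 per population), with the mean (bar) and SD (whisker); every axis starts at 0. The means of the top row and of Adgrg3 are highest in endocardium, where endocardial replicate 1 of Adgrg3 lies below all venous libraries, and Adgrf5, Adgrl4, Adgrl2, Adgre5 and Adgrg1 are lowest there.

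Adgrf5, Adgrl4, Adgrl2, Adgre5 and Adgrg1 were higher in both coronary populations than in endocardium, and none was called between arterial and venous libraries. Adgrf5, best known for control of lung surfactant and present in vessel endothelium (chromosome 17, 43360451 to 43459557, plus strand), measured 1261, 1427 and 1290 CPM in arterial, 1128, 1332 and 1544 CPM in venous and 817, 878 and 874 CPM in endocardial replicates. The endocardial libraries lay within a narrow range below all coronary libraries. Adgrf5 was 1.55-fold higher in arterial (0.63 ± 0.14, adjusted p = 0.00724) and 1.56-fold higher in venous libraries (0.64 ± 0.14, adjusted p = 0.00771). The arterial call was lost without arterial replicate 2 (adjusted p = 0.0703) and the venous call without venous replicate 3 (adjusted p = 0.0545). Arterial minus venous was -0.01 ± 0.14.

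Adgrl4, also called ELTD1 and known from vessel sprouting (chromosome 3, 151437887 to 151545086, plus strand), measured 568, 570 and 484 CPM in arterial, 557, 594 and 751 CPM in venous and 259, 284 and 313 CPM in endocardial replicates. The lowest coronary library lay well above the highest endocardial one. Adgrl4 was 1.90-fold higher in arterial (0.92 ± 0.16, adjusted p = 0.000657) and 2.22-fold higher in venous libraries (1.15 ± 0.16, adjusted p = 0.000115). Adgrl2, a latrophilin (chromosome 3, 148815583 to 148990555, minus strand), measured 391, 453 and 408 CPM in arterial, 515, 505 and 490 CPM in venous and 220, 313 and 309 CPM in endocardial replicates. Its venous libraries lay above all arterial ones, without a call between them (-0.27 ± 0.16, adjusted p = 0.721). The venous excess over endocardium was 1.796-fold (0.84 ± 0.16, adjusted p = 0.00204). The arterial excess was 1.49-fold (0.57 ± 0.16, adjusted p = 0.0259), and it was lost in the fit of only the 2 populations compared (0.0678) and without arterial replicate 2 (0.180), arterial replicate 3 (0.0603), endocardial replicate 1 (0.0879) or venous replicate 2 (0.0514).

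Adgre5, known as CD97 and as a receptor for CD55 on leukocytes and other cells (chromosome 8, 83723251 to 83741326, minus strand), measured 139, 244 and 197 CPM in arterial, 111, 156 and 125 CPM in venous and 44.2, 50.8 and 88.8 CPM in endocardial replicates. All coronary libraries lay above all endocardial ones, and arterial and venous libraries overlapped. Adgre5 was 3.16-fold higher in arterial (1.66 ± 0.28, adjusted p = 0.00089) and 2.13-fold higher in venous libraries (1.09 ± 0.27, adjusted p = 0.0190). The venous call was lost without endocardial replicate 1 (0.0506), endocardial replicate 2 (0.110), venous replicate 2 (0.0868) or venous replicate 3 (0.0526). Leukocyte markers were low: 4 of 8 were tested and none was called, none of the 8 was at 0 in every library, and their sum was 5.24 to 10.2 CPM in arterial, 5.74 to 7.45 in venous and 6.92 to 8.33 in endocardial libraries. Adgre1, which encodes the macrophage antigen F4/80, had no count in 6 libraries and at most 0.993 CPM.

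Adgre5 shares 23.8% of its merged exon length (895 bases) with Ddx39, an RNA helicase gene on the opposite strand. Whether the counting used strand is not given in the sources used here, so reads from the shared bases cannot be assigned with certainty. Ddx39 measured 68.0 ± 14.6 CPM (SD, n = 3) in the arterial, 89.6 ± 6.37 in the venous and 44.4 ± 0.108 in the endocardial libraries. It was higher in venous than in endocardial libraries (1.01 ± 0.20, adjusted p = 0.00243) and had an adjusted p of 0.0540 in the arterial comparison (0.61). Its part in the Adgre5 levels was not tested.

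Adgrg1, a collagen III receptor that signals through G12 and G13 proteins (chromosome 8, 94974751 to 95014217, plus strand), had the largest coronary excess of the called members, with a wide spread. It measured 23.7, 33.8 and 43.2 CPM in arterial, 13.0, 28.5 and 18.4 CPM in venous and 3.82, 3.89 and 0.204 CPM in endocardial replicates. The endocardial values rest on 50, 54 and 3 counts. Adgrg1 was 12.8-fold higher in arterial (3.67 ± 0.79, adjusted p = 0.0158) and 7.59-fold higher in venous libraries (2.92 ± 0.77, adjusted p = 0.0454). With the batch (a label equal to the replicate number) as a replicate block the adjusted p was 0.0565 and 0.113, so neither was called. The arterial call was also lost without arterial replicate 2 (0.0665), arterial replicate 3 (0.0580), endocardial replicate 1 (0.0567), endocardial replicate 2 (0.0627) or venous replicate 3 (0.0544). The venous call was lost with RLE scaling (0.0514), in the fit of only the 2 populations (0.0623) and without any single library except endocardial replicate 3, with an adjusted p of up to 0.168.

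Some mural markers and the epicardial marker Wt1 were also higher in the coronary libraries. Against endocardium, 5.92% of all genes were higher and 5.75% lower in arterial, and 5.81% and 4.44% in venous libraries. Of 7 mural markers, 3 (Rgs5, Kcnj8 and Abcc9) were higher in arterial and 2 (Rgs5 and Abcc9) in venous than in endocardial libraries. Only 1 (Pdgfrb) was lower in venous libraries, and Cspg4, Myh11 and Acta2 were not called. The mural sums were 529 to 835, 228 to 328 and 74.9 to 142 CPM in arterial, venous and endocardial libraries. In the coronary libraries they were mostly Abcc9, at 415 to 673 CPM in arterial and 168 to 261 CPM in venous ones. Of 5 epicardial markers 4 were tested, of which 1 (Wt1) was higher in arterial and 2 (Wt1 and Krt19) in venous than in endocardial libraries. The epicardial sums of 181 to 208, 139 to 170 and 21.2 to 28.0 CPM were nearly all Wt1, at 178 to 204, 136 to 158 and 17.6 to 23.7 CPM. Upk3b and Msln stayed at or under 4.11 CPM and were not called, with arterial minus endocardial values of -2.30 and -1.64. Of 8 pan-endothelial markers, 4 were higher and 1 lower in arterial, and 3 higher and 1 lower in venous than in endocardial libraries. The part of these in the coronary-high members was not tested.

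**Figure D4:**
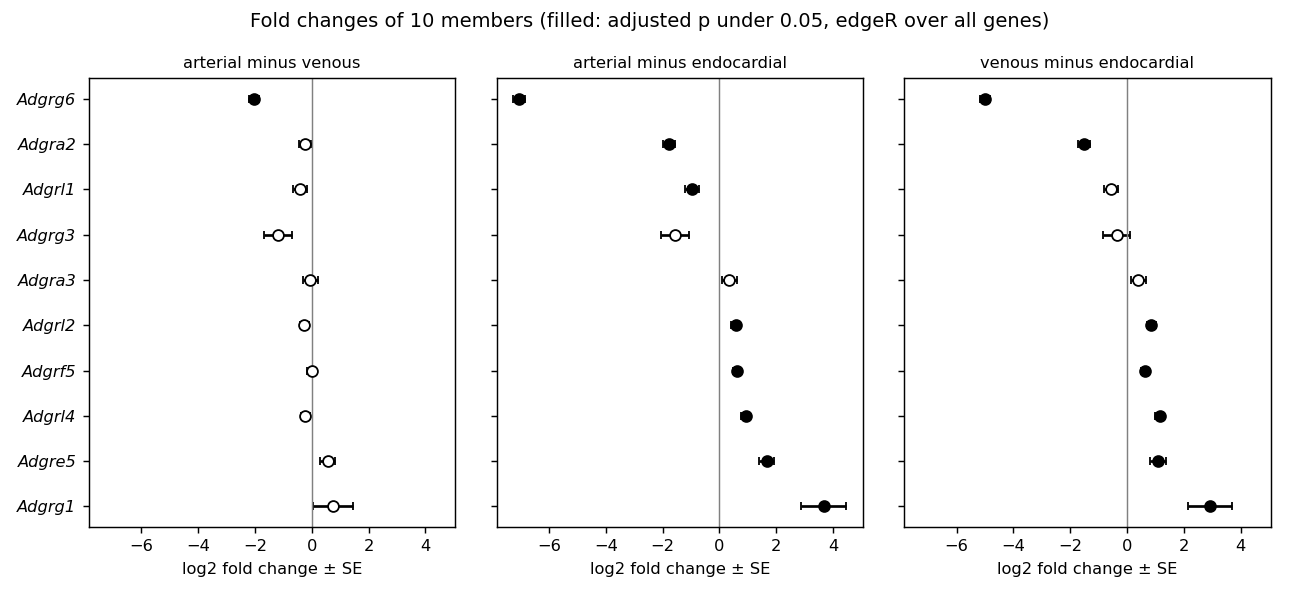
Log2 fold change (x axis; point) ± SE (whisker) of 10 members in the 3 comparisons; filled points have an adjusted p under 0.05. The only filled point in arterial minus venous is Adgrg6, which is also the point farthest to the left in both comparisons with endocardium.

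Of the 18 tested members, 10 did not pass in any comparison, Adgrg3 among them. Adgra3, a relative of Adgra2, was not called in any comparison, at 32.7 ± 8.14 CPM (SD, n = 3) in the arterial, 33.9 ± 2.19 in the venous and 25.7 ± 5.98 in the endocardial libraries, with log2 differences of -0.05 (arterial minus venous, adjusted p = 0.984), 0.34 (0.547) and 0.40 (venous minus endocardial, 0.416). Adgrb3, a brain receptor for C1q-like proteins, varied widely between the replicates of a population, at 49.8, 15.0 and 71.0 CPM in arterial, 18.5, 6.98 and 4.40 CPM in venous and 75.1, 13.9 and 8.75 CPM in endocardial replicates, with adjusted p-values of 0.680, 0.899 and 0.429. Adgrv1, a very large receptor of sensory cells, measured 7.59, 3.46 and 22.6 CPM in arterial, 5.44, 1.79 and 3.12 CPM in venous and 9.47, 4.32 and 2.92 CPM in endocardial replicates. Adgrl3, a latrophilin, measured 10.3, 4.43 and 10.9 CPM in arterial, 6.45, 6.36 and 7.32 CPM in venous and 18.1, 9.80 and 5.09 CPM in endocardial replicates.

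The other tested members were low: Adgrd1, Adgrb2, Adgrf2, Adgrg4 and Adgrg5 each lacked a count in at least 1 library. Adgrd1 reached 3.10, 2.90 and 3.21 CPM in replicate 1 of the arterial, venous and endocardial populations and at most 0.614 CPM elsewhere. Adgrb2 was likewise highest in replicate 1 of each population, at 3.46, 0.473 and 4.20 CPM. Such a pattern was found for 2 of 18 tested members (11.1%) and for 7.31% of all genes tested. Adgrf2, Adgrg4 and Adgrg5 peaked at 1.62, 2.78 and 1.38 CPM.

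Several members lie next to each other in the genome, and some neighbours differed in direction. On chromosome 8, Adgrg1 and Adgrg3 are 3.475 kb apart with no protein-coding gene between them, with Adgrg1 called higher in both coronary populations and Adgrg3 lower in arterial than in endocardial libraries at an adjusted p of 0.0515. Adgre5 and Adgrl1 lie 158.8 kb apart on the same chromosome, with Adgre5 called higher and Adgrl1 called lower in arterial than in endocardial libraries. Adgrl2 and Adgrl4, 2447 kb apart on chromosome 3, were both called higher in the coronary populations. Adgrf5 had the highest mean per length in every population, and its neighbour Adgrf1, 35.71 kb away on chromosome 17, was too low to be tested.

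Genes for known ligands and binding partners were followed as a list of 36, of which 30 were tested. In arterial minus endocardial, 6 were higher, 10 lower and 14 not called (median log2 fold change -0.82, all genes 0.01). In venous minus endocardial, 7 were higher, 5 lower and 18 not called (median -0.49, all genes -0.10). Between arterial and venous libraries 1 was higher, 3 lower and 26 not called (median -0.11, all genes 0.03). Of all genes, 5.92% were higher and 5.75% lower in arterial minus endocardial, and 5.81% and 4.44% in venous minus endocardial. For arterial minus venous the shares were 0.31% and 0.76%.

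Partners of the endocardium-high members included Reck, the membrane anchor that works with Adgra2, which measured 7.11 ± 0.134 CPM in the arterial, 12.7 ± 1.86 in the venous and 70.6 ± 10.3 in the endocardial libraries. It was lower in arterial (-3.31 ± 0.26, adjusted p = 1.49e-07) and in venous than in endocardial libraries (-2.47 ± 0.25, adjusted p = 3.88e-06). Fzd4, a Wnt receptor, was instead higher in both coronary populations (0.91 and 1.04, adjusted p = 0.0138 and 0.00648). The ligand genes Wnt7a and Wnt7b were low, with population means of at most 1.71 CPM. Lama2, a laminin chain that binds Adgrg6, was higher in arterial (36.2 ± 4.18 CPM) and venous (20.9 ± 2.77) than in endocardial libraries (3.77 ± 1.88), opposite to Adgrg6. Col4a1 and Col4a2, collagen IV chains that bind Adgrg6, were not called in any comparison.

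Flrt2, a latrophilin ligand, rose in steps as Adgrg6 did, at 41.9 CPM (24.9 to 55.3) in the arterial, 111 ± 23.8 in the venous and 367 ± 7.72 in the endocardial libraries, with adjusted p-values of 0.0101 (arterial and venous), 9.63e-07 and 0.000273. Unc5b, a netrin receptor that binds FLRT proteins, ran the other way at 214 ± 59.4, 82.0 ± 24.0 and 18.5 ± 5.03 CPM, with adjusted p-values of 0.0210, 1.09e-06 and 0.000128. Unc5c, of the same receptor family, ran with Flrt2 at 0.962 ± 0.264, 6.34 ± 3.16 and 16.7 ± 6.94 CPM, with adjusted p-values of 0.0200 and 8.9e-05 for arterial against venous and endocardial libraries and 0.101 between the last 2. Cd55, a ligand of Adgre5, was opposite to its receptor. It measured 15.8 ± 8.80 CPM in the arterial, 33.4 ± 5.57 in the venous and 98.5 ± 14.4 in the endocardial libraries (adjusted p = 5.46e-05 and 0.00439 against endocardium). Thy1, of the same list, was lower in arterial than in endocardial libraries (-3.15 ± 0.93, adjusted p = 0.0348) and not called in venous ones (0.153). Prnp, also listed, was higher in both coronary populations (0.70 and 0.97, adjusted p = 0.0313 and 0.00437). Col3a1, the collagen bound by Adgrg1, was low in arterial libraries (23.3 ± 9.53 CPM) and high in venous (526 ± 68.1) and endocardial ones (289 ± 18.9), with an adjusted p of 6.95e-08 for arterial and 0.0205 for venous against endocardial libraries. Fibroblast markers were mostly lower in arterial libraries too (6 of 8 against endocardium), but in venous minus endocardial 3 were lower and 2 higher. Their part in the Col3a1 level was not tested.

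Signal transducers, 27 genes for G protein subunits, arrestins, cyclases and other signalling proteins, had 6 higher, 1 lower and 20 not called in each coronary population against endocardium. Over all genes, 5.92% were higher and 5.75% lower in arterial, and 5.81% higher and 4.44% lower in venous libraries. The median log2 fold change of the 27 was 0.03 in the arterial comparison (all genes 0.01) and 0.10 in the venous one (all genes -0.10). DESeq2 called 8 higher and 2 lower in arterial, and 6 higher and 2 lower in venous libraries. Over all genes DESeq2 called 7.4% higher and 7.3% lower in arterial, and 7.01% and 7.21% in venous libraries. None of the 27 was called between arterial and venous libraries by edgeR, where 1 had an unadjusted p under 0.05 and DESeq2 called 0. Gnas, the Gs subunit through which Adgrg6 signals, was higher in arterial (1698 ± 358 CPM) and venous (2041 ± 479) than in endocardial libraries (834 ± 111; adjusted p = 0.00161 and 0.000294). Gnai2, a Gi subunit, and Elmo1 and Dock1, which act downstream of Adgrb1, were also higher in both. Gna13, through which Adgrg1 signals, was higher in arterial libraries (0.79 ± 0.18, adjusted p = 0.00759) and did not pass in venous ones (adjusted p = 0.125). Arrb1, a beta-arrestin, was lower in both, at 30.8 ± 8.28 and 52.5 ± 7.40 CPM against 126 ± 42.8 in endocardium (adjusted p = 6.56e-05 and 0.0046).

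The 3 Celsr genes belong to the family by structure but carry other symbols, and they were described apart. Celsr1, a planar cell polarity cadherin, measured 2.90 ± 0.552 CPM in the arterial, 8.66 ± 2.01 in the venous and 18.2 ± 6.65 in the endocardial libraries. Its libraries ran from 2.36 to 3.46, 6.55 to 10.6 and 12.1 to 25.3 CPM. It was lower in arterial than in endocardial libraries (-2.65 ± 0.43, adjusted p = 0.000386). Arterial minus venous was -1.58 ± 0.42 (adjusted p = 0.111). There DESeq2 called 1 of the 3 Celsr genes lower, and 1.39% of all genes lower. Celsr2 and Celsr3 were not called by edgeR.

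**Figure D5:**
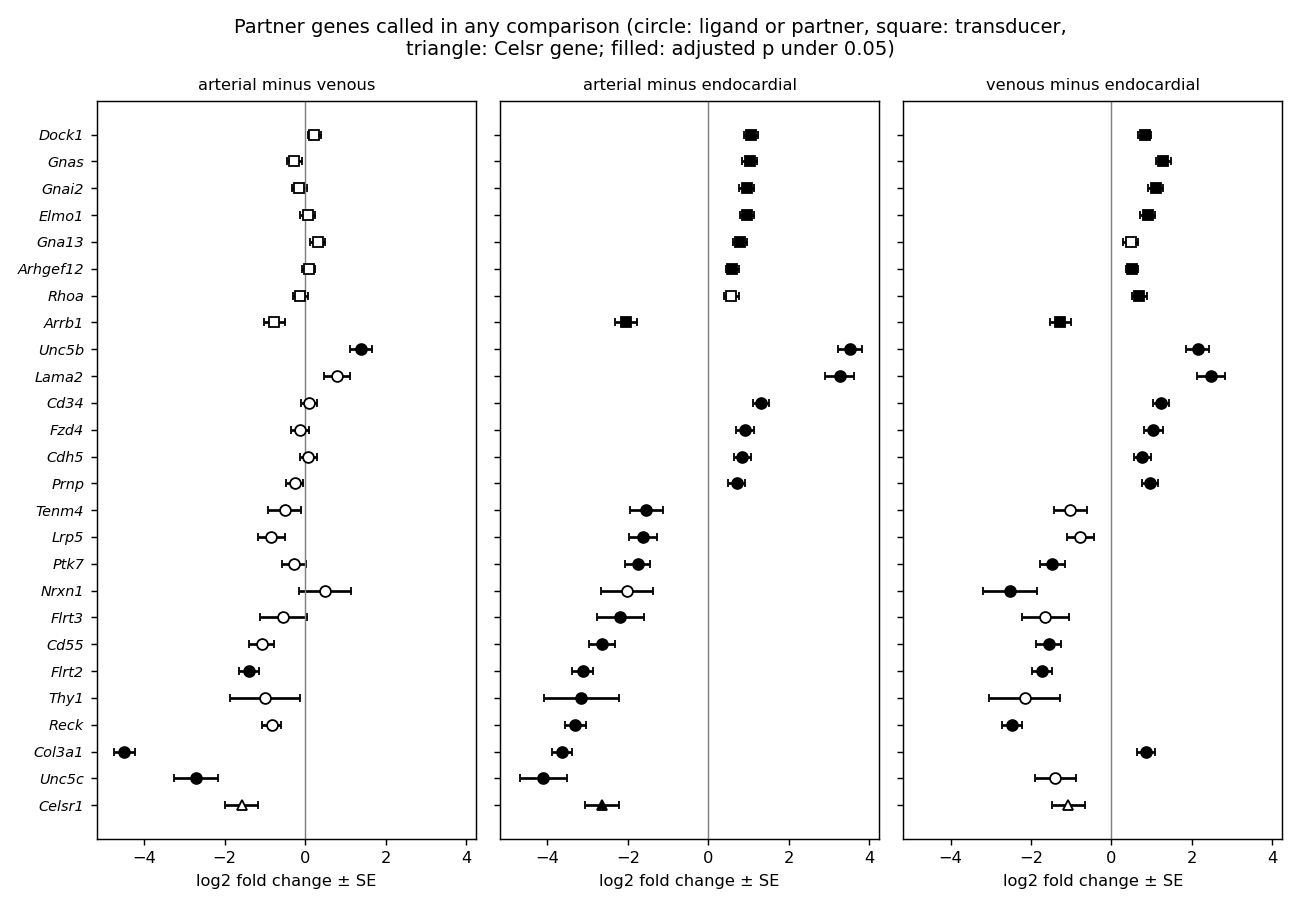
Log2 fold change (x axis) ± SE of the 26 partner, transducer and Celsr genes called in any comparison; circles are ligands and partners, squares transducers, the triangle Celsr1, and filled symbols have an adjusted p under 0.05. Unc5b and Lama2 lie to the right, and Unc5c, Col3a1, Reck and Flrt2 to the left, in arterial minus endocardial.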

How the data were processed

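The table deposited by the authors holds expected counts per gene, made with RSEM 1.2.3 after CASAVA 1.8.2 and cutadapt 1.3 against GRCm38, per the submitters' processing notes. Neither the aligner nor the strandedness is given there. Per the labels' protocols, 1 ng of total RNA was amplified with a single-cell kit and sequenced as single reads; a second library kit is also named. Expected counts were rounded to whole counts (45.5% of values above 0 were not whole) and tested with edgeR 4.0.16 in R 4.3.3 (robust quasi-likelihood F test, TMM scaling, low-count filter with a minimum count of 10) over 17103 genes, in 1 fit of 9 libraries and 3 populations, with no block. Each SE was derived as |log2 fold change|/√F. DESeq2 1.42.0 was an alternative. Gene lengths and coordinates came from GENCODE M21 (GRCm38). The script was run on counts simulated from the fitted means and dispersions, which checks the code and not the calls reported here.

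The batch label equals the replicate number, and the labels state no pairing of libraries beyond it. The main fit had no block and so left batch out, and a replicate block was an alternative. Deviations from the population means correlated at 0.083 to 0.165 between the libraries of batch 1, 0.036 to 0.146 in batch 2 and -0.09 to 0.092 in batch 3. Libraries of different batches and populations ran from -0.271 (arterial replicate 2, endocardial replicate 1) to 0.16 (arterial replicate 2, endocardial replicate 3). Each batch holds 1 library per population, so no test within a batch was possible. The members and the gene lists were chosen with earlier results of these data known. Every member was accounted for, and those called were given by library. Other genes were named from the lists only, except Ddx39 and Gm10644, which overlap members and were added for that.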

Additional observations from a re-analysis of the deposited data

How the results depend on the processing

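The 54 log2 fold changes of the tested members were recomputed under 14 alternatives (DESeq2, RLE scaling, no filter on low counts, a replicate block, only the 2 populations compared, and leaving out each library). Of the 16 calls, 9 held under all 14 and none reversed; the other calls are given with their values beside the results. With the replicate block the Adgrg1 calls ended (adjusted p = 0.0565 and 0.113) and no other call changed. The block raised the share of all genes called from 11.7% to 13.5% (arterial minus endocardial) and from 10.2% to 12.3% (venous minus endocardial). For arterial minus venous it rose from 1.07% to 1.32%. Leaving out 1 library gave 5 to 8 called members for arterial minus endocardial (5 without arterial replicate 2 or 3), 4 to 7 for venous minus endocardial (4 without venous replicate 3) and 1 for arterial minus venous. Without these libraries the share of all genes called fell as well. It was 7.86% and 8.87% without arterial replicate 2 or 3 (11.7% with all libraries) and 5.83% without venous replicate 3 (10.2%). Fits without 1 library tested 19 to 22 members. Each leaves a population with 2 libraries.

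Reversals were confined to 14 results that were not called. Outside leave-one-out these were Adgrf5 arterial minus venous at 0.0117 with DESeq2, 0.0120 with RLE scaling and 0.0044 with only the 2 populations, and with the replicate block Adgrb2 at 0.84 and Adgrg4 at 1.05 (arterial minus endocardial) and Adgrg5 at 0.0258 (venous minus endocardial). Leaving out 1 library moved the log2 fold change over these ranges. For arterial minus venous: Adgra3 -0.27 to 0.0914, Adgrd1 -3.73 to 1.22, Adgrf5 -0.12 to 0.10. For arterial minus endocardial: Adgrb2 -1.75 to 3.26, Adgrb3 -0.0029 to 2.00, Adgrd1 -3.59 to 2.86, Adgrg4 -1.49 to 6.30, Adgrl3 -0.70 to 0.20, Adgrv1 -0.0098 to 1.63. For venous minus endocardial: Adgrb2 -5.30 to 0.30, Adgrd1 -1.30 to 3.09, Adgrg3 -0.68 to 0.0046, Adgrg4 -6.83 to 2.56, Adgrg5 -5.81 to 5.72. The cause was not tested.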
